A study of Mus musculus with 8 samples.

Results

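The m6A peaks described here were called in the liver of wild-type mice and had no counterpart in the liver of Mettl14 knockout mice. A wild-type peak was counted as lost when none of its exonic blocks shared a base on the same strand with an exonic block of any knockout peak. By that rule 1521 of 5586 wild-type peaks (27.2%) were lost, in 1142 of the 2988 genes with a wild-type peak (38.2%), and 4065 were kept. The knockout list was longer, with 12290 peaks in 5861 genes, of which 8929 lay off every wild-type block, and both lists together held 17876 peaks. The members were chosen by the peak calls themselves, so the peaks' scores and lengths are given below as a description, without a test. Lost means that no knockout peak was called at those bases and does not give the level of methylation there.

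The wild-type mice carried the floxed allele (METTL14f/f, here WT), and the knockout mice are labelled METTL14Alb and, in the series text, LKO (here KO). Both genotypes had been injected i.p. with tunicamycin, 2 mg/kg for 24 h, so no group shows untreated liver. Polyadenylated liver RNA was sequenced directly (input) and after pull-down with the antibody of an m6A enrichment kit (IP). Each genotype had 2 input and 2 IP libraries. Whether libraries of 1 group are separate mice is not in the labels, and p-values then reflect only the spread between libraries, which may be technical. The submitters' text states the purpose as learning how METTL14 protects liver against damage from the unfolded protein response.

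N6-methyladenosine (m6A) is written into mRNA by a complex of METTL3, which holds the active site, and METTL14, which supports it and helps bind the RNA. It is found mostly at the motif RRACH, and most often around stop codons, in long internal exons and in the last exon of mRNAs, where reader proteins link it to mRNA decay, splicing and translation. Antibodies to m6A also bind N6,2'-O-dimethyladenosine (m6Am), which lies next to the cap of mRNAs whose first base is A and is written by another enzyme, PCIF1. Tunicamycin stops N-linked glycosylation, misfolded proteins build up in the endoplasmic reticulum (ER), and hepatocytes answer with the unfolded protein response.

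Lost peaks were rare at the starts of genes, and the sequences of the few that covered a RefSeq transcript start are shown first, beside kept peaks at such a start. Of the lost peaks 8 covered a RefSeq transcript start for which sequence was at hand, against 211 kept peaks. The first 30 transcribed bases (RefSeq, GRCm38.p6) are given 5′ to 3′ for 5 of the lost and 3 of the kept peaks, those with the highest scores. Capitals mark the base triplets GAC and AAC, the core of the m6A motif.
Cox11, lost, chr11:90638184-90638213, plus strand: ggggttatgggagggctctggtgtccggga
Abcg8, lost, chr17:84683121-84683150, plus strand: gggagaaaggctggcacagaggagggctca
Ptms, lost, chr6:124917917-124917946, minus strand: agcggctggtcggcggcagctctgctggtg
Cyp2c37, lost, chr19:39992424-39992453, plus strand: agtaagaagaatctccatggatccaatcct
Gm16157, lost, chr7:68275069-68275098, minus strand: AACtactggggaGACcgagggaggaagaag
Dpyd, kept, chr3:118562180-118562209, plus strand: agtgctggggcaagctgaggctttggtgcg
Mpnd, kept, chr17:56009201-56009230, plus strand: ggggaggagcccgttcactcggaggaggct
Mlec, kept, chr5:115158147-115158176, minus strand: ggaggaggaggaggaggaggccctgagagc

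The lost peak of Abcg8 ends at base 84683138 and a KO peak begins at 84683139, so the last bases shown for Abcg8 lie under a KO peak. The lost peak of Cyp2c37 ends at the base where a KO peak begins, 39992473, which lies beyond the bases shown. Of the starts shown only that of Gm16157 held a capital triplet in its first 30 bases. Over the first 50 bases on the transcribed strand, GAC was found in 2 of 8 starts under lost peaks, in 126 of 211 under kept peaks (59.7%) and in 48.1% of all 32851 RefSeq start windows. The longer motif GGAC, which contains GAC, was found in 0 of 8, in 60 of 211 (28.4%) and in 18.9% of all windows. AAC was found in 3 of 8, in 70 of 211 (33.2%) and in 38.5%. On the opposite strand GAC was found in 6 of 8, in 97 of 211 (46.0%) and in 47.8%, and AAC in 2 of 8, in 92 of 211 (43.6%) and in 42.3%. An A as the first base was found in 5 of 8 starts under lost peaks, in 72 of 211 under kept peaks (34.1%) and in 34.4% of all windows. With 8 starts these shares are a description, and a match is not a methylated site.

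The position of a peak in its gene was not used to choose the members. A distance is counted along the genome from the nearest end of a peak to the start or end of the RefSeq gene, introns included. Of the 1521 lost peaks 1519 could be placed, of which 1506 lay in protein-coding genes, 10 in lncRNA genes and 3 in transcribed pseudogenes. Within 100 bases of the gene start lay 37 lost peaks (2.44%, exact 95% binomial interval 1.72 to 3.34) and 817 kept peaks (20.3%, interval 19.0 to 21.6). Within 500 bases of the gene end lay 396 lost peaks (26.1%, interval 23.9 to 28.4) and 393 kept peaks (9.75%, interval 8.86 to 10.7). The intervals cover counting error only, since each genotype has 1 peak list and the difference has no replicate check.

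Read the other way, the share of WT peaks that were lost rose with distance from the gene start. With distance from the gene end it rose up to 500 bases and fell beyond. It was 4.33% within 100 bases of the start, 7.29% from 101 to 200 bases, 14.8% from 201 to 500, 23.1% from 501 to 1000, 32.7% from 1001 to 5000 and 37.2% farther away. From the gene end it was 41.2% within 100 bases, 49.2% from 101 to 200, 52.4% from 201 to 500, 42.0% from 501 to 1000, 29.6% from 1001 to 5000 and 14.99% farther away. Peaks at the start of a gene were therefore seldom lost, and of those 201 to 500 bases before its end more were lost than kept.

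**Figure D1:**
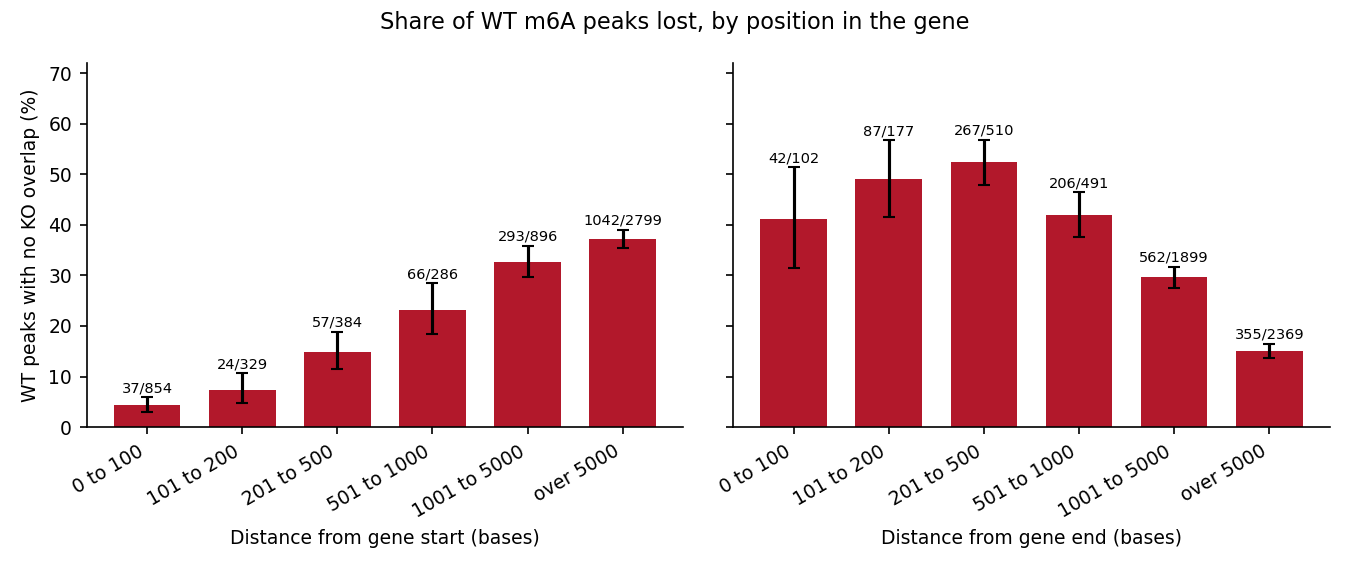
Share of WT m6A peaks with no overlapping KO peak (y axis, percent) by distance from the gene start (left) and the gene end (right) in bases; bars are shares, error bars exact 95% binomial intervals, and the labels give lost over all WT peaks. The share climbs from 4.33% within 100 bases of the start to 37.2% beyond 5000 bases, and it is highest, 52.4%, from 201 to 500 bases before the end.

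The last 10% of the gene's length held 49.2% of lost peaks and 24.7% of kept peaks, and the first 10% held 9.48% and 39.5%. The KO peaks off WT blocks had 12.3% within 100 bases of the start and 11.5% within 500 bases of the end, so they lay between lost and kept peaks at the start. The median distance from the gene end was 1487 bases for lost peaks, 4999 for kept peaks and 4647 for those KO peaks. In 612 genes with both lost and kept WT peaks, the median distance from the gene start was compared. It was larger for the lost peaks in 467 (76.3%) and for the kept peaks in 145 (23.7%). This distance runs to the edge of a peak nearest the gene start, so a peak that crosses a splice junction counts by its first block. Such peaks were 25.1% of kept and 8.35% of lost peaks.

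**Figure D2:**
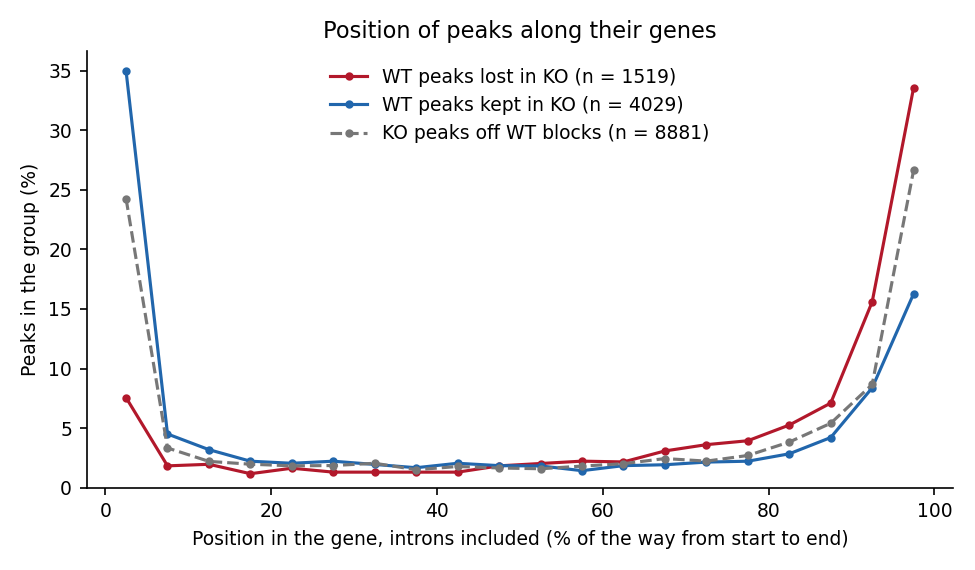
Share of the peaks of each group (y axis, percent) by position along the gene, introns included, in steps of 5% of its length (x axis), for 1519 lost WT peaks, 4029 kept WT peaks and 8881 KO peaks off WT blocks. The first step holds 7.57% of the lost and 35.0% of the kept peaks, and the last step holds 33.6% and 16.3%.

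The same shares were computed within subsets by size, by a minimum score and by the call of the gene, which do not match lost and kept peaks on score or RNA level. Among peaks of a single bin of 49 bases, 1.97% of lost and 15.7% of kept peaks lay within 100 bases of the start, and 26.5% and 10.7% within 500 bases of the end. Among peaks with at least the median score of WT peaks, the shares were 3.63% and 21.3% at the start and 12.8% and 6.38% at the end. In genes whose input RNA was not called changed, they were 1.13% and 15.9% at the start and 24.8% and 10.3% at the end. In the 122 lost peaks of genes that were higher in KO, 0 lay within 100 bases of the start, against 6.94% of 461 kept peaks.

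Lost peaks differed in how far they stood from the nearest KO peak, and many stood close. A gap of 0 or 1 base to a KO block was found for 352 lost peaks, 2 to 50 bases for 136, 51 to 100 for 126, 101 to 1000 for 244 and over 1000 for 663. Thus 614 lost peaks (40.4%) had a KO peak within 100 bases, about the width of 2 of the bins of 50 bases in which peaks were called. A gap of 0 was found for 186 lost peaks. The lost peak of Gata4, a transcription factor gene, abutted a KO block in this way, as did lost peaks of Slc18a1, Lgr4, Sigirr and Abcg8. These 5 scored from 171 to 452, far above the median of 12.8 over all lost peaks within 100 bases of a KO block. If the last base of single-block peaks is counted, those of Slc18a1 and Lgr4 share their edge base with a KO peak. The number of lost peaks is then 1369. On the other side of the threshold, WT peaks of Ppp1r12c, Ube2d3, Sugp1, Rheb and Gps2 were kept with 1 shared base, which is 2% to 2.04% of their blocks.

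By gene, 356 lost peaks lay in 255 genes with no KO peak at all. Another 341 lay in 273 genes whose KO peaks were all elsewhere in the gene, and 824 lay in 614 genes that kept another WT peak. In the 887 genes with a lost peak and a KO peak, 2364 WT and 2204 KO peaks were called, and 245 of these genes had more KO than WT peaks while 353 had fewer. A single lost peak was found in 867 genes, 2 in 204, 3 in 47, 4 in 17, 5 in 6 and 7 in 1. Rn45s, the ribosomal RNA precursor with the highest mean of all genes with a lost peak, lost 1 of 5 peaks.

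Lost peaks had low enrichment scores and were short. The score is the authors' ratio per peak, taken as antibody-enriched over input RNA. Its median was 12.98 in lost peaks, 30.1 in kept peaks and 12.98 in KO peaks off WT blocks, and in lost peaks it ran from 0.711 to 821. A score over 100 was found in 118 lost peaks (7.76%) and in 774 kept peaks (19.0%). The share of WT peaks lost fell over 5 equal groups of peaks by score, from 42.4% at scores up to 6.5, through 33.9%, 26.8% and 19.3%, to 13.7% at scores above 79.4. Lost peaks in genes with no KO peak scored higher, with a median of 24.7, than lost peaks in genes that kept another WT peak, with a median of 8.60. The first genes also had less input RNA, with a median mean count of 396 against 1789.5.

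A single bin of 49 bases made up 1120 lost peaks (73.6%) and 1738 kept peaks (42.8%). The share lost was 39.2% among WT peaks of that length and 6.16% among those of 150 bases or more. More than 1 exonic block, which means that a peak crosses a splice junction, was found in 127 lost peaks (8.35%) and 1019 kept peaks (25.1%). The longest lost peak had 349 exonic bases, in Pigr, the receptor that carries IgA across epithelia (chr1:130844667-130845016). It was followed by Suox, sulfite oxidase, with 348 bases and the kinase gene Snrk with 299. The lost peak with most blocks, 3, was that of Stra13.

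The highest score of a lost peak was 821, at the very start of Cox11, a gene for copper insertion into cytochrome c oxidase (chr11:90638184-90638331). Cox11, whose sequence is shown above, had 1 WT and 0 KO peaks. The next were a peak of 739 in Setd1b, a histone H3 lysine 4 methyltransferase gene (chr5:123158633-123158682), and a peak of 702 in Slco1b2, the hepatocyte uptake transporter (chr6:141633092-141633141). A peak in Sox13 scored 696 (chr1:133383643-133383692) and one in Rnaset2a 629, a gene with a near-identical copy, so its reads may be shared. The peaks of Chst13 (455), Gata4 (452), Zbtb24 (387), Mib2 (345) and Kdm5c (341), the last a histone demethylase gene, completed the first 10.

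Of these 10 genes 7 had no KO peak, while Slco1b2 had 1, Gata4 3 and Kdm5c 2. Normalized counts of Sox13 were low, 108 and 127 in KO and 89.5 and 113 in WT, and a ratio over few input reads is imprecise. Mean counts were also low in Chst13 (132), Zbtb24 (178), Cox11 (186) and Gata4 (234). The others of the 10 had means from 368 in Mib2 to 2195 in Slco1b2. At the other end, lost peaks of Cyp2e1 (0.868), Col18a1 (0.785) and Ahsg (0.711) scored below 1, which is no enrichment. A score under 2 was found in 105 lost peaks, and 21 lost peaks had an authors' p of at least 0.05.

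The genes of lost peaks were next compared in the input RNA, in which genotypes had been tested by the authors. The header of the authors' deposited table does not state the numerator, and values were read as KO over WT, using only genes without a lost peak. Of 344 such genes above 2 (log2), 156 (45.3%) had KO peaks and no WT peak, and of 250 below -2, 30 (12%) did; the reading assumes that an abundant mRNA yields peaks more easily. Counts of the single input libraries, A and B of each genotype, were recovered from the deposited means, with estimated totals of 12604362 (A) and 12372543 (B) reads for KO and 16823436 (A) and 13496735 (B) for WT. Mettl14 itself was at 64.6 and 62.0 normalized counts in KO and 79.8 and 99.7 in WT, without overlap, and its log2 change in the authors' deposited table was -0.50 ± 0.41 (SE, DESeq2 adjusted p = 0.342). Neither list held a peak in Mettl14, and whether its counts include reads outside a deleted exon was not tested.

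Most genes with a lost peak had less input RNA in KO. Of 1142 such genes, 634 (55.5%) were lower and 95 (8.32%) higher at an adjusted p under 0.05 in the authors' deposited table, against 22.2% lower and 20.4% higher among all 14257 tested genes. The members are well-expressed genes, and among all tested genes with means of 100 or more the shares were 31.4% lower and 20.8% higher. Their median log2 change was -0.65, against 0.046 over all tested genes. Among the 1846 genes whose WT peaks were all kept, 48.97% were lower and 11.3% higher, with a median of -0.48. Genes with kept peaks only were thus also lower more often than the background, and the difference between both sets of genes was not tested.

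These directions depend on how the libraries were scaled. With libraries scaled to equal total reads every log2 change rises by 0.82, and the medians become 0.17 for genes with a lost peak, 0.34 for genes with kept peaks only and 0.87 for all tested genes. Of the 634 lower genes 471 stayed below 0 under that scaling. The shift is the same for every gene, so the gap between these medians is the same under both scalings by construction. Any gene below whose fall was smaller than 0.82 turns positive there. In bulk tissue, fewer cells of a type and less RNA per cell cannot be told apart.

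In single libraries, among recovered genes with means of 100 or more, both KO values lay below both WT values in 742 of 1082 genes with a lost peak (68.6%), against 47.1% of all 9096 such genes. Both lay above in 175 (16.2%), against 34.9%. Among the 1814 such genes whose WT peaks were all kept, both KO values lay below in 63.6% and above in 21.4%. The difference between genes with lost peaks and genes with kept peaks only was not tested. Of 8 hepatocyte markers 6 were lower and 1 higher in the authors' deposited table, and of 5 bile duct cell markers 4 were higher, with a median log2 change of 3.54. The summed normalized counts of 4 recovered bile duct cell markers were 3871 and 2969 in KO and 618 and 773 in WT. Of 5 stellate cell markers 2 were higher and 0 lower in the authors' deposited table, with summed normalized counts of 7874 and 5556 in KO and 3591 and 2844 in WT. Of 5 macrophage markers 1 was higher and 1 lower, of 5 endothelial markers 0 were higher and 1 lower, and none of 5 lymphocyte markers, with means of 1.69 to 8.24, was called there. A lost peak was found in 3 of the 8 hepatocyte markers and in 1 of 5 endothelial markers. It was found in 0 of 5 bile duct cell, 0 of 5 stellate, 0 of 5 macrophage and 0 of 5 lymphocyte markers. Only a gene with a WT peak can lose one, and the markers with a WT peak were not counted. Over all genes with a WT peak 38.2% lost at least 1. The part of cell types in the result was not tested.

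The larger the fall of the RNA, the more of its WT peaks were lost. The share lost was 45.5% of 143 peaks in genes with a log2 change below -3 in the authors' deposited table, 39.6% from -3 to -2, 28.2% from -2 to -1, 25.4% from -1 to 0, 24.4% from 0 to 1, 21.99% from 1 to 2 and 10.7% of 28 above 2. By level, it was 56.2% in genes with a mean normalized count under 250 in KO, 34.4% from 250 to 500, 26.6% from 500 to 1000, 22.4% from 1000 to 5000 and 19.2% above that. By the WT level the shares ran from 49.3% to 23.5% over the same steps. By the call of the gene the share lost was 28.8% in lower genes, 26.7% in genes not called and 20.9% in higher genes, beside 27.2% over all WT peaks.

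**Figure D3:**
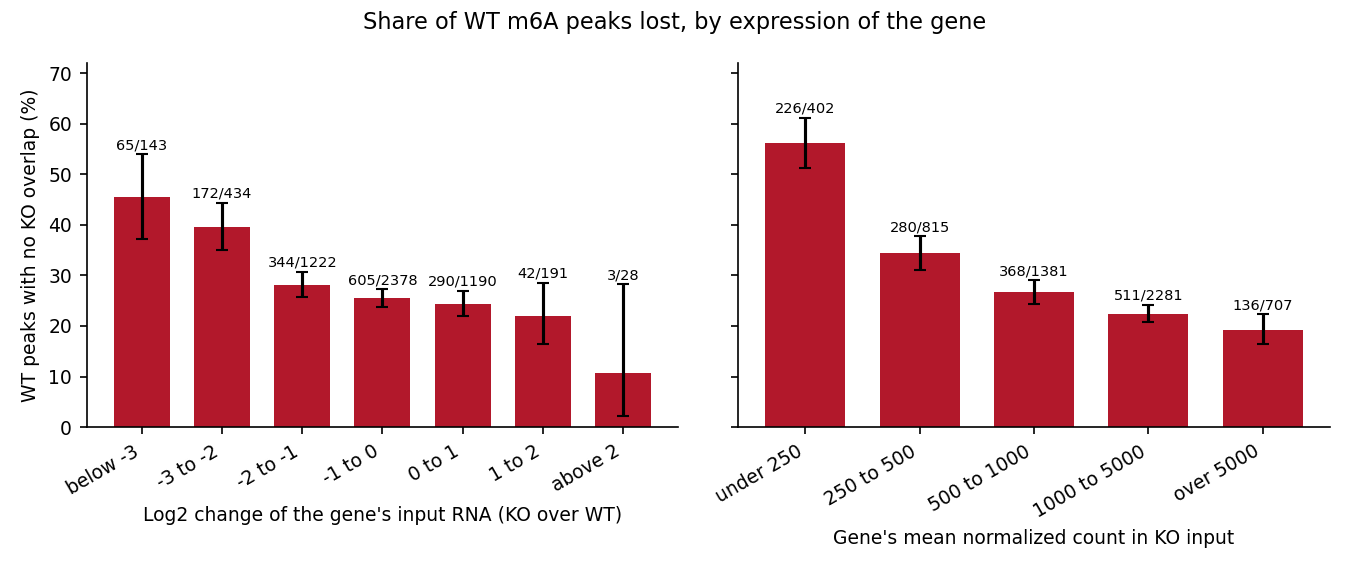
Share of WT m6A peaks with no overlapping KO peak (y axis, percent) by the gene's log2 change in input RNA, KO over WT, in the authors' deposited table (left), and by its mean normalized count in KO input (right); error bars are exact 95% binomial intervals, and the labels give lost over all WT peaks. The share falls from 45.5% to 10.7% over the change and from 56.2% to 19.2% over the level.

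The class of lost peak went with expression too. The 255 genes with no KO peak had a low median mean count of 396, against 959 for all genes with a lost peak, and a median log2 change of -0.82 in the authors' deposited table, with 154 lower, 11 higher and 90 not called. The median over these genes was 261 and 285 normalized counts in KO A and KO B and 475 and 471 in WT A and WT B. Genes with KO peaks elsewhere only had a median log2 change of -0.36 in the authors' deposited table (106 lower, 37 higher of 273). Genes that kept another WT peak had -0.72 there (374 lower, 47 higher of 614).

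The gene with most lost peaks was Slc27a2, which activates very long chain fatty acids. Its 7 lost of 9 WT peaks had scores of 1.77 to 9.68, and 4 of them lay 245 to 538 bases from the gene start. A peak at the start itself (chr2:126553024-126553171) and one 391 bases from the end were kept. Slc27a2 had 2555 and 2735 normalized counts in KO and 24539 and 22634 in WT, and it fell by 3.16 ± 0.17 (SE, log2) in the authors' deposited table (DESeq2 adjusted p = 1.34e-72). All KO values lay far below the WT values.

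Ppara, the nuclear receptor for fatty acids that drives their oxidation, lost all 4 of its WT peaks and had no KO peak. These had scores of 128 (chr15:85735892-85735991), 120 (chr15:85801268-85801417), 41.1 and 19.3, and the last 3 lay 5434, 4587 and 1396 bases from the gene end. Ppara had 505 and 511 normalized counts in KO and 3352 and 2478 in WT. Its log2 change in the authors' deposited table was -2.52 ± 0.21 (SE, DESeq2 adjusted p = 3.0e-31).

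Dgat2, which makes triglyceride from diacylglycerol, lost all 5 WT peaks, each within 880 bases of the gene end and with scores of 5.14 to 24.7. Dgat2 had no KO peak and was at 3825 and 4954 normalized counts in KO and 10193 and 10532 in WT. Its log2 change in the authors' deposited table was -1.24 ± 0.19 (SE, DESeq2 adjusted p = 8.67e-10). Chdh, choline dehydrogenase, lost 5 of 7 WT peaks, with KO peaks 1 to 251 bases from each of the lost ones. Its counts were 1620 and 1738 in KO and 2791 and 2460 in WT, a log2 change of -0.65 ± 0.19 (SE, DESeq2 adjusted p = 0.0019) in the authors' deposited table. The pair differed: Dgat2 had no called KO peak, while in Chdh KO peaks lay beside the lost ones.

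Abhd15, named after its values were seen, lost 5 of 6 peaks (scores of 3.10 to 31.0) at 181 and 139 normalized counts in KO and 1890 and 1765 in WT. Of the 7 genes that lost 5 or more it had the lowest mean count, and it fell by 3.51 ± 0.22 (SE, log2) in the authors' deposited table (DESeq2 adjusted p = 1.65e-55).

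Other genes lost many peaks without a called fall in RNA. Ankrd11, a chromatin regulator gene, lost all 5 WT peaks (scores of 8.07 to 19.9) and had no KO peak, with 1644 and 1474 normalized counts in KO and 1253 and 1081 in WT. Its KO values lay above the WT values, but the log2 change of 0.42 ± 0.20 (SE) in the authors' deposited table did not pass (DESeq2 adjusted p = 0.0745). C77080 lost all 5 WT peaks, of which 1 had a KO peak 50 bases away, and it had 3828 and 3916 normalized counts in KO and 1715 and 1879 in WT. It rose by 1.11 ± 0.18 (SE, log2) in the authors' deposited table (DESeq2 adjusted p = 6.51e-09). Eef2, the translocase of the ribosome, lost 5 of 8 WT peaks, all with scores under 2, and kept its 2 strongest, 200 and 100 bases from the gene end. Its log2 change in the authors' deposited table was -0.36 ± 0.18 (SE, DESeq2 adjusted p = 0.0893).

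**Figure D4:**
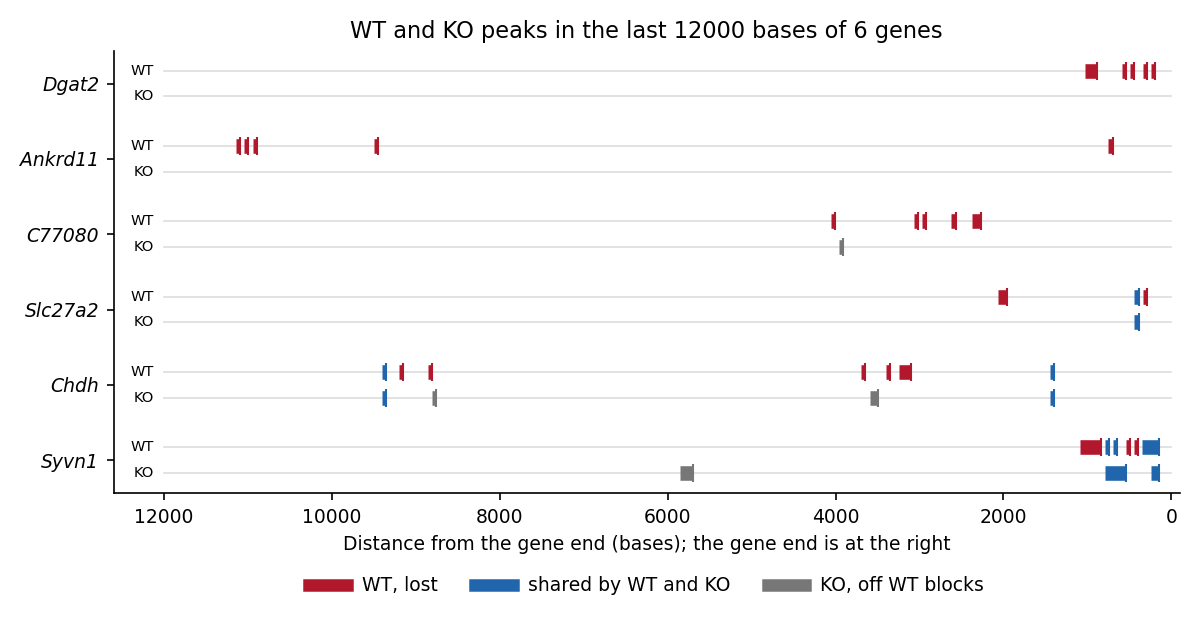
Peaks in the last 12000 bases of 6 genes, by distance from the gene end in bases (x axis, gene end at the right), WT above KO; red is a lost WT peak, blue a peak shared by both lists and grey a KO peak off WT blocks, drawn with its exonic length. Dgat2 and Ankrd11 have 5 red WT peaks each and no KO peak, while Chdh and Syvn1 have KO peaks beside lost ones; 5 more lost peaks of Slc27a2 lie farther from its end.

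Among the 255 genes with no KO peak, 69 had lost at least 2 peaks, of which 41 were lower, 4 higher and 24 not called. Over all 255 the shares were 60.4% lower and 4.31% higher, and a link of RNA change with the number of lost peaks was not tested. The genes named in this paragraph were chosen after their values were seen. Dido1 lost 4 peaks, with scores of 32.3 to 131 and 1348 to 3295 bases from the gene end, at 775 and 877 normalized counts in KO and 901 and 953 in WT. Stk11, the kinase upstream of AMPK, lost 2 peaks (scores of 129 and 10.2) at 1139 and 1585 in KO and 1509 and 1317 in WT, with overlap. Clec16a lost 2 peaks, the higher with a score of 257, at 508 and 474 in KO and 475 and 477 in WT. None of these 3 genes was called changed (log2 changes of -0.17, -0.05 and 0.05 in the authors' deposited table).

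Among the genes that lost all of 4 peaks and fell were Adcy9, an adenylyl cyclase gene with scores of up to 136 (430 and 441 normalized counts in KO, 673 and 665 in WT), and Slc25a25, a mitochondrial carrier of ATP (865 and 556 in KO, 4437 and 2844 in WT). Cldn2, a tight junction protein gene, was at 426 and 315 in KO and 741 and 1425 in WT, and Inhbe, an activin subunit gene, at 151 and 98.6 in KO and 285 and 1244 in WT. Zfp707 also lost all 4 and had a log2 change of -1.13 in the authors' deposited table. The WT libraries of Inhbe differed more from each other than the lower of them from KO. Of the 11 genes with no KO peak that were higher in KO, the largest rise was that of Brf2, a subunit of a polymerase III factor, at 347 and 354 in KO and 111 and 127 in WT. Its log2 change in the authors' deposited table was 1.56 ± 0.28 (SE, DESeq2 adjusted p = 1.82e-07). Ndnl2 (1.41) and Nxt1 (1.24) followed in the authors' deposited table. Adcy9, Slc25a25, Cldn2, Inhbe, Zfp707, Brf2, Ndnl2 and Nxt1 were also chosen after their values were seen.

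With predicted genes left out, the largest falls among genes of lost peaks were those of serum amyloid A genes, which encode acute phase proteins and share sequence with each other, so reads may be shared among them. Saa2 fell by 10.02 and Saa1 fell by 9.64 (log2) in the authors' deposited table, and neither had a KO peak. Saa3 was at 21.5 and 28.9 normalized counts in KO and 1460 and 5714 in WT. The 5 WT peaks of these 3 genes had scores of 1.61 to 4.32. Cyp8b1, the 12-alpha-hydroxylase of bile acid synthesis, lost all 3 peaks (scores of 1.46 to 2.70) at 541 and 349 in KO and 31632 and 18328 in WT.

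Among the predicted genes, Gm20319 was at -4.98 (log2) in the authors' deposited table, a fall larger than that of Hopx below. Further large falls were those of Serpina1e (-5.95) and Mup3 (-5.51) in the authors' deposited table, both of families with near-identical copies. Slco1b2 was at 171 and 82.4 normalized counts in KO and 3367 and 5159 in WT. Hopx, a homeodomain protein gene, was at 75.7 and 68.8 in KO and 1731 and 1541 in WT, and lost its single peak (score 32.6). For Saa3, Cyp8b1, Slco1b2 and Hopx every KO library lay below every WT library, which their choice as largest falls made likely. Cyp8b1 had no called KO peak.

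Lost peaks in genes that rose were fewer. Tpst2, a protein tyrosine sulfotransferase gene, was at 1193 and 1458 normalized counts in KO and 348 and 287 in WT, and Rhou, a small GTPase gene, at 4186 and 4626 in KO and 1016 and 1130 in WT. The lost peak of Tpst2 abutted a KO peak, and that of Rhou lay 50 bases from one. Sall1, a zinc finger factor gene, was at 1305 and 1371 in KO and 363 and 300 in WT, and its lost peak (score 60) lay 2067 bases from a KO peak. Ywhag (5571 and 5530 in KO, 1556 and 1368 in WT) and Capn2 (2367 and 2227 in KO, 534 and 691 in WT), a 14-3-3 protein gene and a calpain gene, each had a gap of at most 1 base to a KO peak. Rnmtl1, Vps18 and Dsg2 rose by 1.74, 1.71 and 1.67 (log2), per the authors' deposited table. The lost peaks of Vps18 and Dsg2 had gaps of 0 and 1 base to a KO peak, and those of Rnmtl1 gaps of 6341 and 6440. Thus, with predicted genes left out, 6 of the 8 largest rises had their lost peak within 50 bases of a KO peak. Over all 1521 lost peaks 352 had a gap of 0 or 1 base and 136 a gap of 2 to 50. The 8 genes were picked by their rise, and a difference from other genes was not tested.

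**Figure D5:**
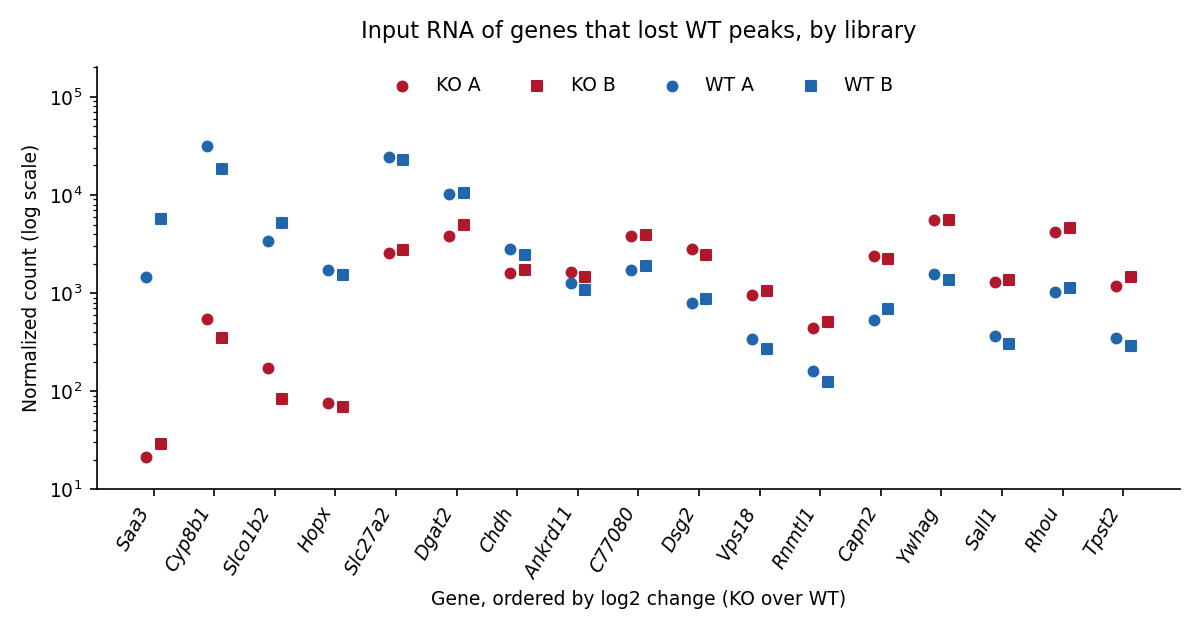
Normalized counts in the 4 input libraries (y axis, log scale) of 17 genes with lost peaks, ordered by log2 change: KO in red, WT in blue, circles library A and squares library B. From Saa3 to Chdh both KO values lie below both WT values, and from Ankrd11 to Tpst2 both lie above, with 1193 and 1458 in KO against 348 and 287 in WT for Tpst2.

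Gene lists show where the lost peaks fell among the functions of the hepatocyte, and they were chosen with earlier results of these data known. The share of a list's WT peaks that were lost is to be read beside 27.2% over all WT peaks. It was 48.4% (15 of 31 peaks) for hepatocyte transcription factors, 45.5% (5 of 11) for clock genes, 40.5% (15 of 37) for membrane transporters, 30.8% (32 of 104) for metabolic enzymes and 28% (7 of 25) for growth hormone and insulin signalling. It was 26.7% (40 of 150) for plasma proteins, 25% (12 of 48) for cytochrome P450 and conjugation enzymes, 19.7% (15 of 76) for the unfolded protein response and 4.76% (1 of 21) for m6A readers and erasers. The cell cycle and p53 list lost 1 of 9 peaks, in Gadd45a, the bile duct and fibrosis list 0 of 2, and the m6A writers 1 of 2. The lists are small, and the shares are a description. Of the 15 lost transporter peaks 7 lay in Slc27a2 alone, which had 9 WT peaks, so that share rests largely on this gene. Counts of genes in the lists are to be read beside those of all genes: 38.2% of genes with a WT peak lost at least 1, and of all genes with a lost peak 55.5% were lower and 8.32% higher in the authors' deposited table. A gene with more WT peaks can more easily lose at least 1 of them. Plasma proteins had 150 WT peaks in 45 genes and metabolic enzymes 104 in 35, beside 5586 in 2988 genes over all. For these lists the share of peaks lost is the fairer measure.

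Of 24 hepatocyte transcription factors 11 had a WT peak, and 9 lost at least 1 of them. Of these 9, 7 were lower and 0 higher in the authors' deposited table, with a median log2 change of -0.99 (-0.17 with equal total reads); of all 24, 12 were lower and 3 higher. Cebpa, which maintains the hepatocyte state, lost 2 of 4 peaks, with scores of 2.90 and 1.81, and kept its strongest (44.6). It had 577 and 544 normalized counts in KO and 3078 and 2998 in WT. Nr1i3, the receptor CAR for foreign compounds, lost 1 of 2 peaks at 47.0 and 62.9 in KO and 1477 and 707 in WT. Rxra, the partner of many nuclear receptors, lost 1 of 6 peaks (score 4.36) at 4374 and 5302 in KO and 10373 and 11546 in WT.

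Nr5a2, a receptor that controls bile acid genes, was chosen for naming after its values were seen. It lost 1 of 2 peaks (score 41.3), 50 bases from a KO peak, at 590 and 648 in KO and 543 and 803 in WT, with overlap. The factors named thus ranged from 1 of 6 peaks lost in Rxra to all peaks in Ppara.

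Of 12 transporters with a WT peak 8 lost at least 1, and of these 7 were lower and 0 higher in the authors' deposited table (median log2 change -2.98; all 22 members, 17 lower and 3 higher). Over all genes 38.2% of those with a WT peak lost 1, and 55.5% of these were lower. Beside Slc27a2 and Slco1b2, Abcg8, a subunit of the sterol exporter, lost 2 of 3 peaks at 110 and 116 normalized counts in KO and 1692 and 1732 in WT. Slc38a4, an amino acid transporter, lost 1 of 4 at 3749 and 3594 in KO and 26567 and 24769 in WT. In all 4 the KO libraries lay below the WT libraries, which their choice by smallest adjusted p made likely. Among all recovered genes with means of 100 or more, 47.1% had this order.

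Of 35 metabolic enzymes with a WT peak 20 lost at least 1, and of these 18 were lower and 0 higher in the authors' deposited table (median log2 change -2.27; all 46 members, 36 lower and 3 higher). Fbp1, of gluconeogenesis, lost a peak 246 bases from the gene end (score 2.68) and kept the one at its start (score 7.69), at 3358 and 2992 normalized counts in KO and 35489 and 29011 in WT. Arg1, of the urea cycle, lost 1 of 5 peaks and Bhmt, which remethylates homocysteine, 1 of 4. The log2 changes of Arg1 and Bhmt in the authors' deposited table were -2.91 and -3.72.

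Of 45 plasma protein genes with a WT peak 30 lost at least 1, of which 28 were lower and 0 higher in the authors' deposited table (median log2 change -1.74; all 53 measured members, 49 lower and 1 higher). Alb, for albumin, lost 1 of 3 peaks, the one with the lowest score (1.84), and kept those with scores of 42.3 and 35.2 near its start. Ahsg and Apoe, of fetuin A and apolipoprotein E, lost 1 of 3 and 1 of 5. C8a, of complement, lost 1 of 3 at 802 and 909 normalized counts in KO and 10279 and 13265 in WT, and Fetub, of fetuin B, 2 of 4 at 1344 and 1091 in KO and 12836 and 13032 in WT. Apob, named after its values were seen, lost 1 of 10 WT peaks and had 16 KO peaks.

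Of 22 cytochrome P450 and conjugation genes with a WT peak 8 lost at least 1, of which 6 were lower and 1 higher in the authors' deposited table (median log2 change -1.67; all 30 members, 21 lower and 3 higher), beside the same 38.2% and 55.5% over all genes. Cyp3a13 lost 2 of 3 peaks at 2261 and 2475 normalized counts in KO and 9863 and 14923 in WT. Ugt1a1, which conjugates bilirubin, lost 1 of 2 at 4160 and 4518 in KO and 18195 and 19934 in WT. Cyp2c37, whose lost peak covered the transcript start shown above, was at 94.8 and 136 in KO and 1217 and 471 in WT.

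The unfolded protein response, the pathway set off by tunicamycin, lost 15 of 76 WT peaks (19.7%, beside 27.2% of all WT peaks), a difference that was not tested. Of 26 members with a WT peak 11 lost at least 1, of which 5 were lower and 2 higher in the authors' deposited table, with a median log2 change of -0.28 that turned to 0.55 with equal total reads (all 34 members, 16 lower and 7 higher). Syvn1, the ubiquitin ligase HRD1 of ER-associated degradation, lost 3 of 6 peaks, all within 840 bases of the gene end and 0 to 99 bases from a KO peak. Syvn1 was at 4298 and 2895 normalized counts in KO and 7943 and 12415 in WT, a log2 change of -1.50 ± 0.25 (SE, DESeq2 adjusted p = 1.06e-08) in the authors' deposited table.

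Hspa5, the ER chaperone BiP, lost 1 of 6 WT peaks, with a score of 1.60 and next to a KO peak, and rose by 1.36 ± 0.20 (SE, log2) in the authors' deposited table (DESeq2 adjusted p = 3.35e-10). Creb3l3, a liver factor cleaved under ER stress, lost a peak of 247 bases 401 bases from the gene end, 50 bases from a KO peak, at 3140 and 3945 normalized counts in KO and 12546 and 9312 in WT. Sdf2l1, of the ER chaperone complex, lost 1 of 2 peaks, 337 bases from the gene end, at 4339 and 4565 in KO and 9602 and 13507 in WT, and kept the one near its start. Of the 6 lost peaks of these 4 genes 5 thus had a KO peak within 100 bases, beside 40.4% of all lost peaks. The list held 15 lost peaks in 11 genes, and the other genes are not covered by this count.

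Of 6 clock genes with a WT peak 5 lost 1 each, of which 2 were lower and 1 higher in the authors' deposited table, with a median log2 change of -0.33 that turned to 0.49 with equal total reads (all 17 members, 8 lower and 3 higher). Dbp and Tef, transcription factors under clock control, were at 157 and 139 and at 723 and 837 normalized counts in KO, and at 1343 and 1375 and at 3530 and 2844 in WT. Dbp lost the peak 395 bases from its end and kept both near its start. Bhlhe40, a repressor in the clock, lost 1 of 2 peaks at 818 and 656 in KO and 487 and 535 in WT.

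Of 12 growth hormone and insulin signalling genes with a WT peak 5 lost at least 1, of which 3 were lower and 0 higher in the authors' deposited table, with a median log2 change of -1.61 (all 24 members, 11 lower and 3 higher). Socs3, the inhibitor of cytokine receptors, lost its single peak (score 152) and had no KO peak, at 154 and 139 normalized counts in KO and 325 and 571 in WT. Erbb3, a receptor of the EGF receptor family, also lost its single peak (score 114) and had no KO peak, at 1220 and 1745 in KO and 975 and 1142 in WT. Socs3 was lower in both KO libraries and Erbb3 higher in both, though the rise did not pass the test (DESeq2 adjusted p = 0.0694 in the authors' deposited table).

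Of 10 m6A writers measured 2 were higher and 1 lower, and of 14 tested readers and erasers 3 were higher and 2 lower, in the authors' deposited table, beside 20.4% higher and 22.2% lower among all tested genes. Mettl16, which methylates U6 RNA and the mRNA of MAT2A, lost its single peak (score 66.3) and had no KO peak. It was at 303 and 361 normalized counts in KO and 149 and 203 in WT, and rose by 0.92 ± 0.29 (SE, log2) in the authors' deposited table (DESeq2 adjusted p = 0.00426). Fto, a demethylase, lost 1 of 4 peaks, 48 bases from a KO peak, at 724 and 800 in KO and 788 and 844 in WT, with overlap.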

How the data were processed

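Liver RNA of tunicamycin-treated WT and KO mice was sequenced as input and m6A IP, with 2 libraries per group. Tools and build per the submitters' processing notes were mm10, HISAT2 2.1.0 and DESeq2 1.18.1. The sources used here do not name the read counter, the annotation or the peak caller. The authors deposited 1 comparison of the inputs, and for each genotype 1 peak list.

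The deposited mean of a gene is a signal: normalized counts averaged over 4 inputs. The fold change and SE are in log2 units, the Wald statistic is a score and the p-value is adjusted by Benjamini-Hochberg, per the file headers. The deposited enrichment of a peak was read as a ratio, IP over input, and a further column from 0 to 1 as the authors' p-value, not stated to be adjusted. Starts and ends are given as in the files, which matched RefSeq gene ends counted from 1. Counted so, the end base of a single-block peak lies outside its block, and the overlap rule used the blocks.

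Whole counts per library were recovered from the deposited means by searching for counts that gave the mean and the fold change, with size factors of 1.25, 1.18, 0.927 and 0.743. Counts were recovered for 12635 of 12764 genes (99.0%) with a mean of 10 to 20000. In a test on made-up libraries 996 of 996 genes came back correctly. That test was given the true size factors, and its fold changes came from the same kind of fit as the search. It therefore does not cover errors in either. The fold change guided the search, so it is no independent check of the counts. Genes above a mean of 20000 have no library values here. Overlaps, positions and shares were computed with Python 3.11.15, pandas 2.3.3 and scipy 1.17.1. Calls are at an adjusted p under 0.05 in the authors' deposited table, with no new test of genes.

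Members and gene lists were chosen with earlier results of these data known. Named by rule were the 10 highest and 3 lowest scores, the 6 genes with most lost peaks (ties by mean count), the 3 longest peaks and 3 with most blocks, the 8 largest rises and falls with a mean of at least 100 and predicted genes (Gm, Rik) left out, the 5 highest means, up to 4 genes per list, and the 5 peaks nearest to each side of the threshold. On the lost side of the threshold 186 peaks were tied at a gap of 0, and the 5 named had high scores. Other names are said to be chosen after their values were seen, as were those of the transcript starts shown.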

Additional observations from a re-analysis of the deposited data

How the results depend on the processing

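The count of 1521 lost peaks among 5586 WT peaks became 907 when a KO block within 100 bases counted as overlap. It was 524 among the 2793 WT peaks of at least the median score. It was 1551 by whole spans, 1761 when 50% of the blocks had to be covered, 1474 at an authors' p under 0.001, 1521 regardless of strand and 1369 with the last base of single-block peaks counted. Of the 255 genes without a KO peak 11 (4.31%) were higher and 154 (60.4%) lower. Of the 698 genes with lost peaks over 100 bases from a KO block 44 (6.30%) were higher and 410 (58.7%) lower. Over all 1142 genes with a lost peak the shares were 8.32% and 55.5%. The median log2 change of -0.65 became -0.82 in genes without a KO peak, -0.74 for those distant peaks and 0.17, reversed, with equal total reads; leaving out each input library gave -0.67 to -0.55. Lost peaks within 200 bases of the gene start (4.02%) were 2.44% within 100 bases, 6.49% at high scores, 2.44% in genes not called, 5.18% for distant peaks and 9.55% in genes without a KO peak. Kept peaks there (27.8%) were 20.3%, 29.9% and 23.0% under the first 3 of these and 23.3% among single bins. Lost peaks within 500 bases of the end (26.1%) were 39.6% within 1000, 12.8% at high scores and 21.9% without a KO peak; kept peaks (9.75%) were 16.8% and 6.38% under the first 2 of these. Lost peaks had the lower share at the start and the higher at the end in each setting run for both kinds. All alternatives for position, equal total reads, distant peaks and the last base were chosen after seeing the data. Of 54 alternative values 30 stayed within 1.5 times the main count, its counting interval or the spread between libraries.

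No paired analysis was possible because the deposited values carry no replicate number. The share of peaks with a motif was not run, since the genome was not used here. Peaks come from 1 list per genotype, IP depth is unknown, and a peak missing from KO cannot be told apart from one below the depth of its caller.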
